A study of Homo sapiens with 93 samples.

Results

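The immunoproteasome subunits PSMB8 (ENSG00000204264), PSMB9 (ENSG00000240065) and PSMB10 (ENSG00000205220), the proteasome activator subunits PSME1 (ENSG00000092010) and PSME2 (ENSG00000100911), and the aminopeptidases ERAP1 (ENSG00000164307) and ERAP2 (ENSG00000164308) were taken by their Ensembl identifiers from a table of H3K36me3 counts. The rule that picks them uses their role in antigen processing and their identifiers, and no measured value. All 7 were present among the 14000 features of the table, and all 7 passed the filter on low counts, as did 13915 features in all. H3K36me3, trimethylation of lysine 36 of histone H3, had been profiled by CUT&Tag, in which an antibody directs a transposase to chromatin carrying the mark. The samples were 93 human lymphoblastoid lines, grown from B cells that Epstein-Barr virus had immortalised, with 1 library per line and no treatment or comparison group. Lines were cultured in 4 batches in medium with 20% serum, 100000 cells of each were frozen, and libraries were amplified for 14 PCR cycles. Since no batch is recorded for a line, batch could not be entered in any fit, and its part in the spread between lines was not tested.

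The proteasome cuts cytosolic proteins into peptides. In cells of the immune system and in cells exposed to interferon gamma, PSMB8, PSMB9 and PSMB10 take the places of the constitutive catalytic subunits, and the PA28 activator formed by PSME1 and PSME2 opens the gate of the core particle. Peptides carried into the endoplasmic reticulum are trimmed at their amino end by ERAP1 and ERAP2 to lengths that HLA class I molecules bind. H3K36me3 is laid down over gene bodies by an enzyme travelling with elongating RNA polymerase II and is high over the bodies of transcribed genes.

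The genes lie at 4 places in the genome, and their promoters are described here by sequence alone. A set of 4 motifs was searched on both strands of RefSeq promoters (GRCh38.p14, from 250 bases before to 50 after a start site): the core of the interferon-stimulated response element, a STAT site core (TTC, any 3 bases, GAA), an NF-kB site core (GGGA, any base, TTTCC) and an ETS and IRF composite (GGAA, any 2 bases, GAAA). PSMB8, ERAP1 and ERAP2 have more than 1 promoter in the RefSeq table, which gives 10 promoters for the 7 genes. The interferon-stimulated response element core, GAAA followed by any 2 bases and GAAA, was found in 6 of the 10 promoters, 1 in each gene other than PSMB9. Of all 35116 promoters of the same length, 3.57% held it. Capitals mark the match, which reads as TTTC, 2 bases and TTTC where it lies on the other strand, and each window is given in the direction of its gene.
PSMB8, chr6:32844032-32844061 (minus strand): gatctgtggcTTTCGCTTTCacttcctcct
PSMB10, chr16:67936852-67936881 (minus strand): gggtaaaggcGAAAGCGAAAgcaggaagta
PSME1, chr14:24136189-24136218 (plus strand): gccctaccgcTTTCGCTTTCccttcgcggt
PSME2, chr14:24146619-24146648 (minus strand): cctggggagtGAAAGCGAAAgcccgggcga
ERAP1, chr5:96807924-96807953 (minus strand): cgggctccacTTTCACTTTCggtcctgggg
ERAP2, chr5:96876460-96876489 (plus strand): tcttagaacaGAAAGTGAAAgcaaaagtaa
The matches begin between 30 bases before the RefSeq start site, in ERAP2, and 5 bases after it, in PSME1. On the strand of the motif, the middle bases were GC in the 4 proteasome genes with a match and GT in both aminopeptidase genes. The PSMB8 promoter also held the ETS and IRF composite, overlapping the printed match, and a STAT site core. No other promoter of the set held either, against 2.82% and 7.66% of all promoters, and none held the NF-kB core, found in 0.558% of all. A match describes the letters in these windows; it is not a measured site, and its part in the values below was not tested.

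The libraries held 2842955 to 24325746 counts, with a median of 14883653. Levels are given as CPM, counts per 1000000 counts of the library, after edgeR's TMM scaling. The value after each mean is the SD over the 93 lines, a spread between lines and not an error of the mean. Differences in depth, and in the distance between strongly and weakly marked features within a library (its dynamic range), were entered as covariates in the tests of spread and covariation, except where other covariates are named.

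Each of the 7 genes had at least 30 counts in every line; no control antibody library is used here, so the background of the assay was not subtracted. PSMB8, which supplies the chymotrypsin-like activity of the immunoproteasome, lies at chr6:32840717-32844679 on RefSeq GRCh38.p14. It ranged from 10.8 CPM in the lowest line through a median of 20.8 to 34.8 in the highest, with a mean of 21.6 ± 5.35 (SD, n = 93). PSMB9, its neighbour at chr6:32854192-32859851 within the HLA region, ranged from 63.7 through 115 to 184 CPM (mean 118 ± 24.9, SD, n = 93). Every line thus had more counts at PSMB9 than at PSMB8, and the ranges of the 2 genes did not overlap, in counts that the length of the counted interval also sets. PSMB10, the third catalytic subunit, at chr16:67934506-67936850, ranged from 8.19 through 19.1 to 33.4 CPM (mean 19.9 ± 4.66, SD, n = 93). Its highest line was 4.07 times its lowest, the widest ratio of the 7.

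The PA28 genes had nearly the same number of counts. PSME1, at chr14:24136194-24138962, ranged from 11.03 through 19.1 to 31.4 CPM (mean 19.4 ± 4.13, SD, n = 93). PSME2, 4402 bases further along at chr14:24143365-24146610, ranged from 11.01 through 20.2 to 31.8 CPM (mean 20.4 ± 4.46, SD, n = 93). PSME2 had the higher count in 53 of 93 lines.

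The aminopeptidase genes had counts in the range of PSMB9. ERAP1, at chr5:96760813-96935854, ranged from 87.5 through 137 to 201 CPM (mean 140 ± 22.4, SD, n = 93), a highest line 2.30 times the lowest and the narrowest ratio of the 7. ERAP2, at chr5:96875984-96919716, ranged from 67.1 through 105 to 180 CPM (mean 111 ± 25.5, SD, n = 93). The RefSeq span of ERAP1 contains all 43733 bases of ERAP2. CUT&Tag reads carry no strand, so reads over that stretch cannot be assigned to either gene by span or strand alone. That span is the full extent of the RefSeq record. Both ERAP1 promoters searched above lie inside it, at chr5:96807896-96808195 and chr5:96814096-96814395 on the minus strand. Transcription from these start sites runs away from ERAP2 and does not cross it. ERAP2 nevertheless had more counts than ERAP1 in 3 of 93 lines, which could not occur if every read counted for ERAP2 were also counted for ERAP1. The RefSeq span of ERAP1 further overlaps CAST by 13871 bases. PSMB8 overlaps its antisense gene PSMB8-AS1 by 594 bases, and PSMB9, PSMB10 and PSME1 overlap no other RefSeq gene.

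**Figure D1:**
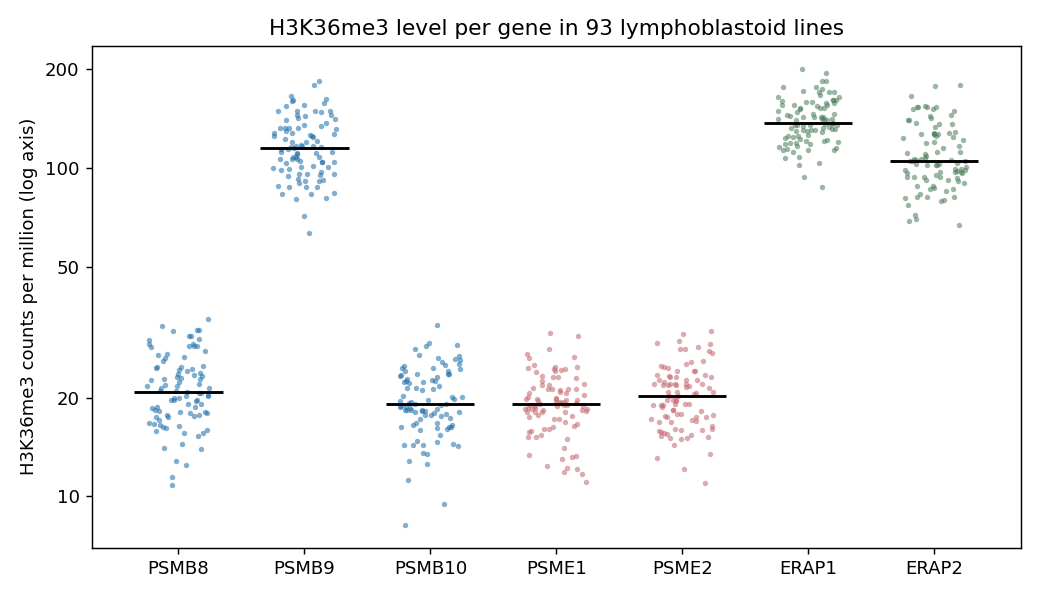
H3K36me3 level of the 7 genes in 93 lymphoblastoid lines, as TMM-scaled CPM on a log axis. Each point is 1 line and each bar the median; PSMB9, ERAP1 and ERAP2 lie above 60 CPM in every line and the other 4 genes below 35.

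Counting error was a small part of this spread. It made up from 1.68% of the squared coefficient of variation, for ERAP2, to 12.8%, for PSME1, whose median count was 270. The coefficient of variation was 0.248 for PSMB8, 0.235 for PSMB10 and between 0.159 and 0.229 for the others.

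Divided by the length of the RefSeq span, PSMB9 again had the highest level of the proteasome genes. The median was 20.3 CPM per kilobase for PSMB9, 8.13 for PSMB10, 6.91 for PSME1, 6.23 for PSME2 and 5.24 for PSMB8. PSMB9 stood above PSMB10 in 93 of 93 lines. The other 4 genes followed in smaller steps, from 8.13 for PSMB10 down to 5.24 for PSMB8. PSMB10 was above PSME1 in 81 lines, PSME1 above PSME2 in 71 and PSME2 above PSMB8 in 73. Each median step in log2 CPM per kilobase was 0.16 to 0.27, with an SD over lines of 0.25 to 0.27. That SD is a spread between lines, not an error of the median. The sources used here do not state the interval in which the deposited counts were made, so these values hold only if that interval was the RefSeq span. Across lines, with the covariates removed, PSMB9 had a correlation of 0.974 with the row next to it. Whether those rows share reads was not tested. For ERAP1 and ERAP2 the 3 lines with more counts at ERAP2 show that not all reads over both RefSeq spans were counted for both genes, so no level per kilobase is given for them. The surrounding table was also uneven: the 500 rows nearest to PSMB10 and to the PSME genes had median levels of 4.80 to 4.89 log2 CPM, against 5.29 to 6.02 log2 CPM around the other 4 genes.

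The spread between lines was near the trend fitted for features of the same mean for most of the set, and PSMB8 was the gene called. In edgeR's goodness-of-fit test against the trended dispersion, PSMB8 had a dispersion 0.65 higher on the log2 scale than the trend (adjusted p = 0.00446). This was 1 of 7 genes called, a share no higher than the 18.6% of all features tested that were called, and 20.5% of the tested features among the 500 rows nearest to PSMB8 were called. PSMB9 lay at 0.23 above the trend (adjusted p = 0.437) and PSMB10 at 0.10 (adjusted p = 0.758). PSME1, PSME2 and ERAP2 lay within 0.08 of the trend, and ERAP1 lay at -1.30, with an adjusted p of 1 for each. The trend itself lay above most features. By this ratio the genes other than ERAP1 ran from the 65.4th percentile of all features (PSME1) to the 84.7th (PSMB8), and ERAP1 lay at the 20.6th. The PSMB8 call was lost in the 46 shallower libraries (0.64 above the trend, adjusted p = 0.0798) and in the 47 deeper ones (0.40, adjusted p = 0.362), a split chosen after seeing the data. It was also lost with no covariates (0.20, adjusted p = 0.447), with 5 principal components (0.017, adjusted p = 1), with 10 (0.042, adjusted p = 1) and by DESeq2's outlier rule. With components removed, PSMB8 thus lay close to the trend.

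**Figure D2:**
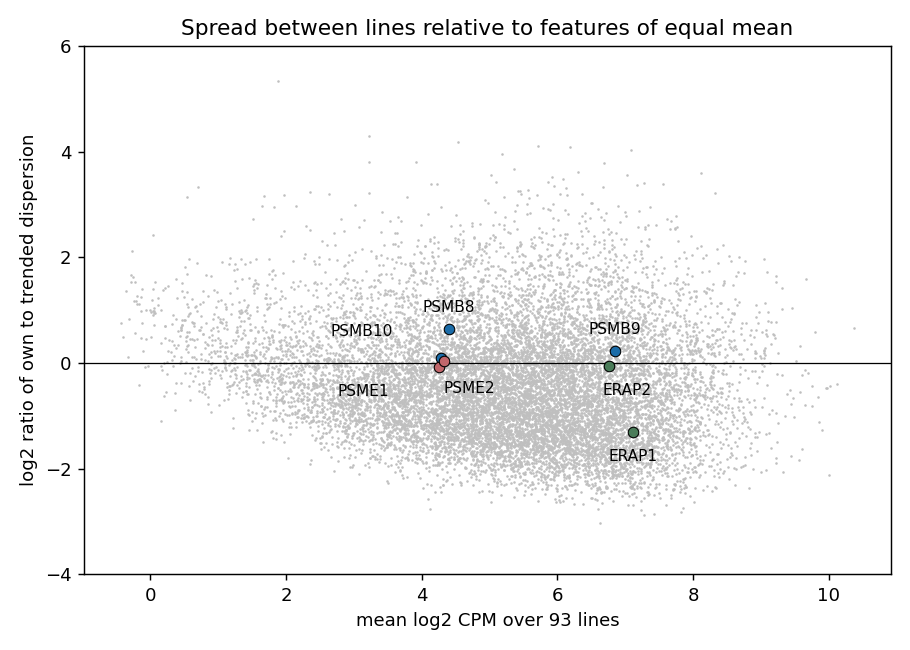
Log2 ratio of each feature's own dispersion to the trended dispersion (vertical axis) against its mean log2 CPM over 93 lines (horizontal axis). Grey points are the features tested and coloured points the 7 genes; PSMB8 lies at 0.65 and ERAP1 at -1.30.

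The shape of the distribution over lines lay between the 13.5th and the 74.8th percentile of all features at the 7 genes. Sarle's bimodality coefficient of the residual log2 CPM, which grows as a distribution splits, was 0.270 for PSMB10 to 0.373 for PSME2, and the median over all features was 0.334. ERAP2, with a coefficient of 0.327, lay at the 44.8th percentile of all features. The widest gap between neighbouring lines left at most 5 lines beyond it in any gene. In the deposited scores, with no covariates, the coefficient was higher at each of the 7 genes. It ran from 0.316 for PSME1 to 0.478 for ERAP2, with 0.438 for PSMB9, 0.425 for PSME2 and 0.391 for PSMB10. No percentile among all features is given for the scores.

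Part of the spread moved with technical measures of the library. In edgeR's quasi-likelihood test, 4 of 7 genes were higher in deeper libraries and 1 was lower, when 29.2% of all features were called higher and 35.8% lower. PSMB10 rose by 0.21 log2 units per SD of the log2 library total (SE 0.035, adjusted p = 1.58e-07) and PSME1 by 0.17 (SE 0.033, adjusted p = 9.58e-06). PSME2 rose by 0.11 (adjusted p = 0.00377) and PSMB9 by 0.07 (adjusted p = 0.0348), and ERAP2 fell by 0.07 (adjusted p = 0.0210). The PSMB9 call was lost without the 10 shallowest libraries, where the value was 0.05 (adjusted p = 0.0985). PSMB8, at 0.06 (adjusted p = 0.150), and ERAP1, at -0.03 (adjusted p = 0.113), did not pass the test. All 7 genes were higher in libraries of wider dynamic range, from 0.10 log2 units per SD for PSME1 to 0.20 for PSMB9. Of all features, 44.5% were called higher and 35.5% lower. Dynamic range is made from the same counts. PSMB9, ERAP2 and ERAP1 had the largest slopes (0.20, 0.19 and 0.17). Their levels lay at percentiles 82.1, 80.3 and 86.6 of all features, in the top quintile that enters the measure. Part of their rise is therefore built in. PSMB8, PSMB10, PSME1 and PSME2, at percentiles 27.2 to 29.7, lay outside the top and bottom quintiles. Library total and dynamic range together held 9.66% of the variance of PSMB8 and 61.98% of that of ERAP1, the lowest and highest shares of the 7.

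The 7 genes rose and fell together across lines. Each gene's residual log2 CPM was used in turn as a term in an edgeR quasi-likelihood fit over all other features, and p-values were adjusted over all features and all 7 fits. Of the 42 fits of one gene on another, 40 were called higher and 0 lower. Each pair of genes was fitted in both directions, so the 42 fits are not independent. The share of all features called higher was 26.5% with PSMB8, 31.7% with PSMB9, 30% with PSMB10, 26.8% with PSME1, 29.6% with PSME2, 20.3% with ERAP1 and 29.3% with ERAP2, and 14.4% to 29.01% were called lower. The median correlation of a gene with the other 6 ran from 0.384 (ERAP1) to 0.678 (PSMB9), while the median with all features ran from 0.009 to 0.031.

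All 20 fits among the 5 proteasome genes were called, with changes of 0.16 to 0.25 log2 units per SD. The largest was PSMB8 on PSMB9, at 0.25 (SE 0.024, adjusted p = 4.81e-15). Of the 20 fits between a proteasome gene and an aminopeptidase gene, 18 were called, with a median of 0.11 log2 units per SD. The residual SD of ERAP1 was 0.143 log2 units, against 0.251 to 0.341 for the proteasome genes, and a change per SD scales with the spread of the responding gene. With ERAP1 as the term, the proteasome genes, which vary more, also changed by only 0.05 to 0.12 per SD. Why the changes with the aminopeptidase genes were smaller was not tested. PSMB10 and ERAP1 were the exception in both directions: ERAP1 changed by 0.02 per SD of PSMB10 (SE 0.015, adjusted p = 0.183) and PSMB10 by 0.05 per SD of ERAP1 (SE 0.030, adjusted p = 0.187).

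Correlations of residual log2 CPM were computed for all 21 pairs over 93 lines, with two-sided permutation tests of 100000 resamples, whose smallest possible p is 1e-05. PSMB8 and PSMB9, whose RefSeq spans lie 9512 bases apart, had a Pearson's r of 0.745 (permutation p = 1e-05) and a Spearman's rho of 0.756 (permutation p = 1e-05), and r was 0.753 without the 2 lines farthest from the median of PSMB8. PSME1 and PSME2 had an r of 0.682 and a rho of 0.655 (permutation p = 1e-05 for each), and r was 0.651 without the 2 farthest lines. ERAP1 and ERAP2 had an r of 0.603 and a rho of 0.627 (permutation p = 1e-05 for each), and r was 0.629 without the 2 farthest lines. Their RefSeq spans overlap by 43733 bases, and any reads counted for both genes would add to r. How many reads were so counted was not measured, which limits every value given for this pair. In each neighbouring pair, lines high for one gene tended to be high for the other.

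PSMB9 and PSME2, on different chromosomes, had an r of 0.737 and a rho of 0.751 (permutation p = 1e-05 for each), and r was 0.746 without the 2 farthest lines. Over the 18 pairs at different loci the median r was 0.583, and all 18 were above 0. The lowest was PSMB10 with ERAP1, at an r of 0.161 (permutation p = 0.125) and a rho of 0.181 (permutation p = 0.0829), with an r of 0.168 without the 2 farthest lines. Among the 10 pairs of proteasome genes r ran from 0.573 to 0.745, and among the 10 pairs of a proteasome gene with an aminopeptidase gene from 0.161 to 0.655. ERAP1 with ERAP2, at 0.603, lay above 2 of the pairs of proteasome genes. The median over pairs at different loci was 0.554 in the 46 shallower libraries and 0.657 in the 47 deeper ones. All 10 pairs of proteasome genes had a permutation p of 0.05 or less in each, but of the pairs with an aminopeptidase gene 7 of 10 did in the shallower libraries and 9 of 10 in the deeper. PSME1 and ERAP2 had an r of 0.279 (permutation p = 0.0594) in the shallower and 0.675 (permutation p = 1e-05) in the deeper libraries, and PSME1 and ERAP1 had 0.201 (permutation p = 0.18) and 0.422 (permutation p = 0.00327). Whether the shallower and deeper libraries differ was not tested.

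Few of these calls remained once components shared by many features were removed. The first 10 principal components of log2 CPM over all features held from 64.9% of the variance of PSMB8 to 86.4% of that of PSMB9, and 65.5% for the median feature. With these 10 components as covariates in place of library total and dynamic range, 0 of the 42 fits were called. At most 0.172% of all features were called higher in any of the 7 fits. With 5 components, 5 of 42 were called, where at most 0.589% of all features were called higher in any fit. The calls were PSMB8 on PSMB9, PSMB8 and PSME1 on each other, and ERAP1 and ERAP2 on each other. What these components stand for was not tested.

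With 10 components removed, the correlations were weaker and those of proteasome pairs and mixed pairs overlapped. Among the 10 pairs of proteasome genes r ran from 0.085 to 0.358, and 5 of them had a permutation p of 0.05 or less. The lowest, PSMB9 with PSME1, had an r of 0.085 (permutation p = 0.419), a rho of -0.013 (permutation p = 0.903) and an r of -0.034 without the 2 farthest lines. PSMB8 and PSME1, on different chromosomes, had an r of 0.358 (permutation p = 0.00058) and a rho of 0.329 (permutation p = 0.00143), with an r of 0.330 without the 2 farthest lines. ERAP1 and ERAP2, whose spans overlap, had an r of 0.365 (permutation p = 0.0003) and a rho of 0.343 (permutation p = 0.00081), with an r of 0.401 without the 2 farthest lines. Reads counted for both genes could add to this r as well, and their share was not measured. Between the proteasome and aminopeptidase genes, 2 of 10 pairs had an r above 0, the higher being PSMB8 with ERAP2 at 0.132 (permutation p = 0.203), and 1 of 10 had a permutation p of 0.05 or less. That pair, PSMB10 and ERAP1, had an r of -0.339 (permutation p = 0.00086) and a rho of -0.338 (permutation p = 0.00086), with an r of -0.346 without the 2 farthest lines. The difference between these classes of pairs was not tested, since the pairs share genes and lines.

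**Figure D3:**
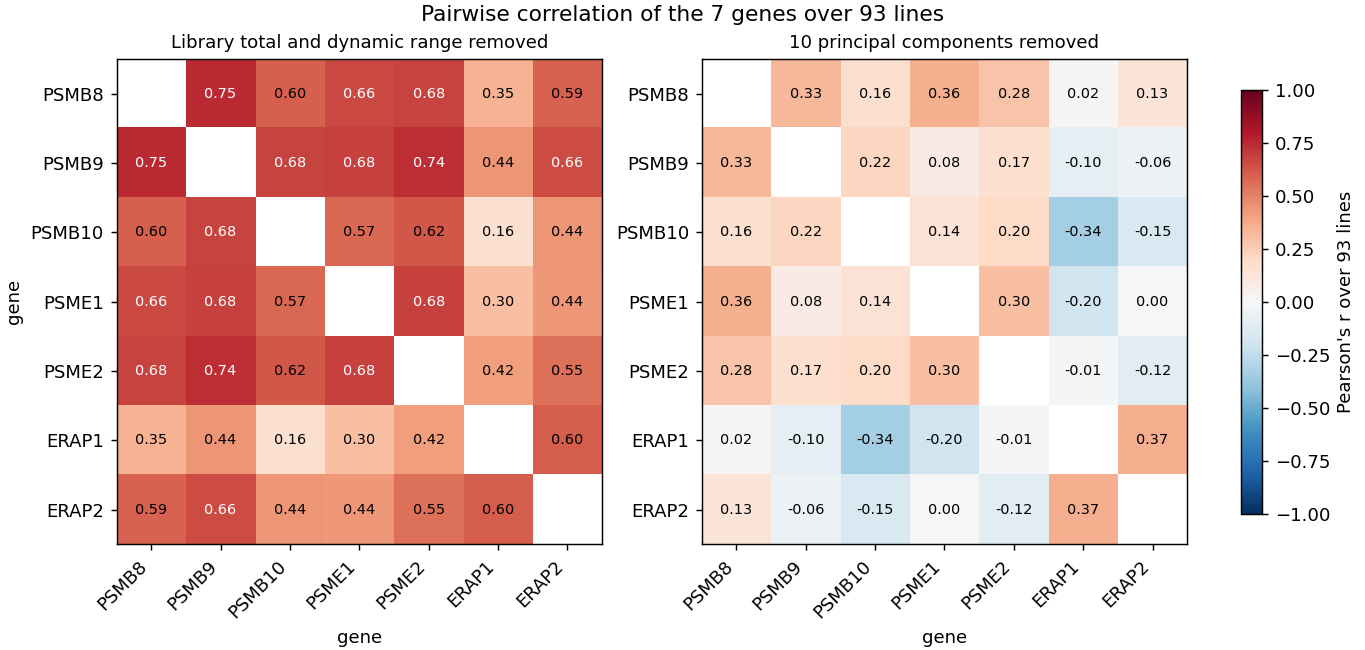
Pearson's r of each pair of the 7 genes over 93 lines, after removal of library total and dynamic range (left) and after removal of 10 principal components (right); red is above 0 and blue below. On the left all pairs lie above 0; on the right the pairs of proteasome genes run from 0.085, which turns to -0.034 without 2 lines, to 0.358, and 8 of the 10 pairs of a proteasome gene with ERAP1 or ERAP2 lie below, PSME1 with ERAP2 by only -0.003.

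The neighbours were compared with other features at the same distance in the table. PSMB8 and PSMB9 are adjacent rows, and their r lay at the 93.5th percentile of all 13847 pairs of adjacent rows, whose median was 0.264. ERAP1 and ERAP2, also adjacent, lay at the 85.7th percentile. PSME1 and PSME2 are 2 rows apart and lay at the 95.7th percentile of pairs at that distance, whose median was 0.161. Within lines, the log2 ratio of PSMB9 to PSMB8 had a median of 2.42 and ran from 1.88 to 3.23, with an SD of 0.239, where counting alone gives 0.110. The ratio of ERAP2 to ERAP1 ran from -0.86 to 0.10 (median -0.34), with an SD of 0.189 against 0.057 from counting, and that of PSME2 to PSME1 from -0.45 to 0.79 (median 0.07), with an SD of 0.245 against 0.152. Depth and dynamic range were not removed from these ratios, and with 1 library per line the noise of library preparation is part of each SD and was not measured. The ratios were added after seeing the data.

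**Figure D4:**
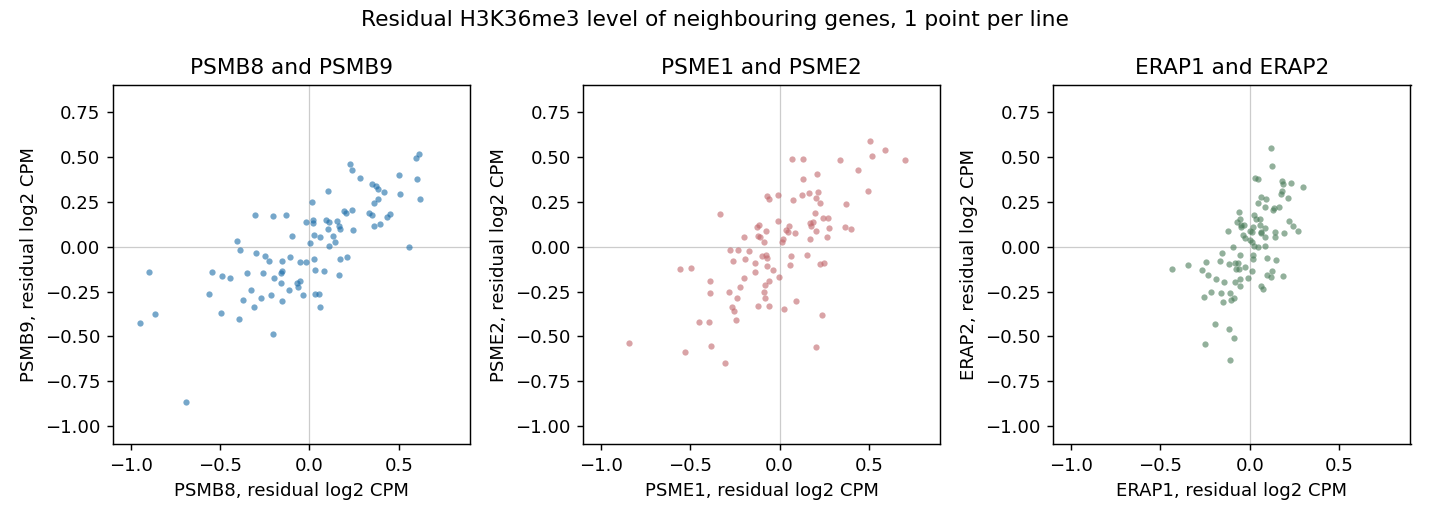
Residual log2 CPM of the 3 neighbouring pairs, with library total and dynamic range removed; each point is 1 of 93 lines. PSMB8 and PSMB9 rise together with r of 0.745, PSME1 and PSME2 with 0.682, and ERAP1 and ERAP2 with 0.603, and ERAP1 spans the narrowest range.

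The features most like a member were often its neighbours. ENSG00000168394, the row next to PSMB9, had an r of 0.974 with it over 93 lines, and ENSG00000146112, 80 rows before PSMB9, had 0.906. At the other end, ENSG00000139173 had an r of -0.811 with PSMB9 and ENSG00000173166 an r of -0.757 with PSME1. No source used here pairs these identifiers with gene symbols. PSMB9 also had the widest reach: 152 features more than 250 rows away had an r above 0.7 with it, against 0 to 22 for the other 6 genes. Around PSMB8 and PSMB9 the likeness extended along the table, with a median r of 0.353 and 0.455 over the features 6 to 25 rows away. At the same distance the median was -0.058 for ERAP1 and -0.047 for ERAP2. In an alternative added after seeing the data, the median level of the 500 nearest rows was removed as well. The 20 rows on each side of the gene were left out of that level, so the signal of the closest neighbours was not removed. The median r over pairs at different loci was then 0.347. It was 0.643 among the proteasome genes and 0.246 between proteasome and aminopeptidase genes.

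**Figure D5:**
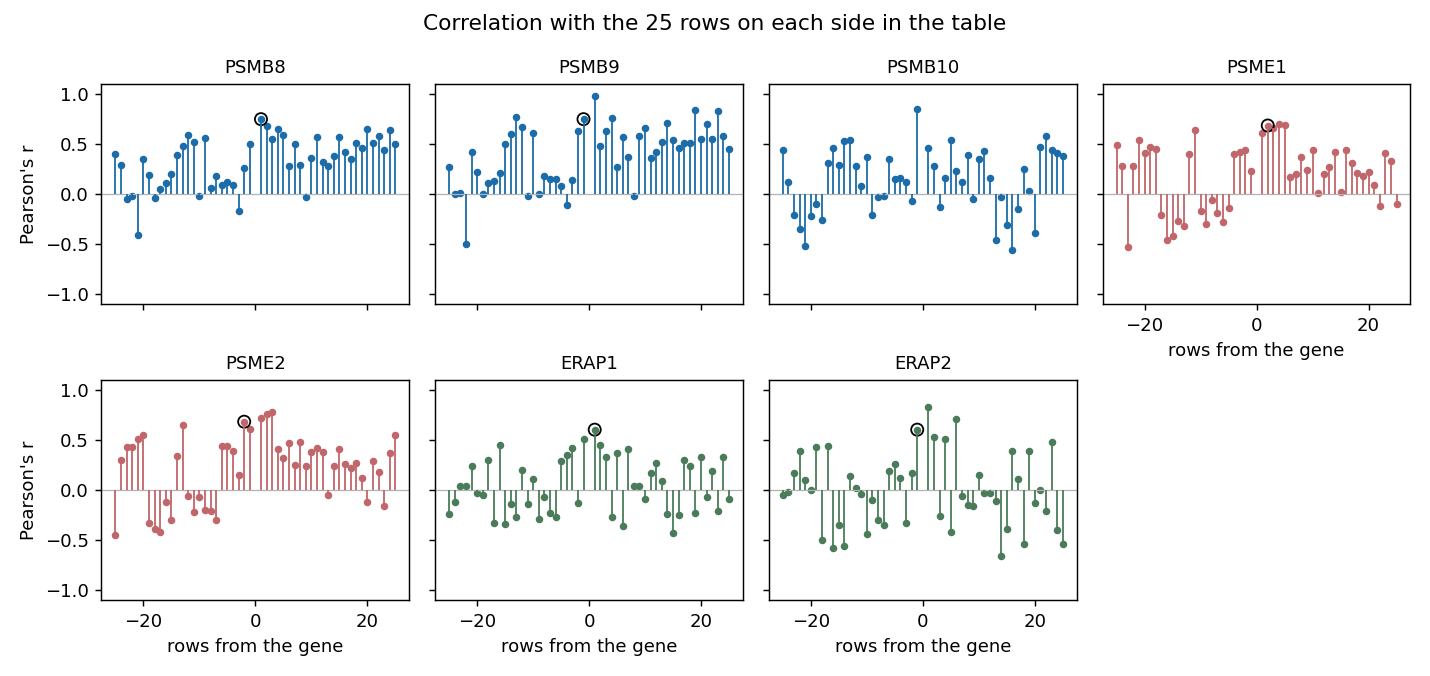
Pearson's r over 93 lines between each gene and the 25 rows on either side of it in the table; circles mark another gene of the set. PSMB9 has its highest value, 0.974, with the next row, and the median over rows 6 to 25 away is 0.455 for PSMB9 and -0.047 for ERAP2.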

How the data were processed

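H3K36me3 CUT&Tag libraries of 93 lymphoblastoid lines were analysed, as 1 group with 1 library per line. Whole-number counts per feature were deposited by the authors, with a second table of normal scores that were deposited for the same features and lines and used only as an alternative. Per the submitters' processing notes, HISAT2 2.2.1, bedtools and the build hg38 were used. The counted interval, the read filters, how the scores were made and how the features were chosen are not stated in the sources used here. Lines have 1 library each, so p-values measure the spread between these libraries. The rule for the members uses no measured value, but the members, gene lists and tests were proposed and chosen with earlier results of these data known.

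Features that reached 10 counts in 47 or more libraries were kept (13915 of 14000) and scaled by TMM in edgeR 4.0.16 (R 4.3.3). Log2 CPM used a prior count of 2. Spread was tested with edgeR's goodness-of-fit test against the trended dispersion, and technical terms and covariation with edgeR's quasi-likelihood test. Covariates were log2 library total and dynamic range (median log2 CPM of the top minus the bottom quintile of features). Benjamini-Hochberg adjustment ran over all features, and a call is an adjusted p of 0.05 or less. The 21 pair correlations used permutation tests in residual log2 CPM. Alternatives used limma 3.58.1, DESeq2 1.42.0, other covariates and subsets of libraries. The covariation fit was tested on simulated data for 13910 features: of 100 features given a change of 0.2 log2 units per SD, 99 were called, and of 100 at 0.1, 52. Of 13710 features given no change, 8 were called. The simulated features varied independently and the term was drawn at random. The simulation therefore does not show how the fit behaves where features share components and the term is a gene of the same table.

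Named were the 7 members and the features with the highest and lowest correlation with one, limited to 2 identifiers each way. The reference table paired 0 of the table's identifiers with a symbol, so 77 listed pathway, marker and constitutive proteasome genes were not used and the cell type was not checked against its markers. The 7 members were matched to RefSeq by symbol, and promoters were read with Python 3.11.15.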

Additional observations from a re-analysis of the deposited data

How the results depend on the processing

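Levels and slopes on the technical measures kept their direction in all alternatives run; 1 call, PSMB9 on library total, was lost. Of the members, 1 was called in the test of spread; 0 were called with no covariates, with 5 or 10 principal components, in the 46 shallower libraries, in the 47 deeper libraries and as DESeq2 dispersion outliers, a rule that called 242 features in place of 2586. The dispersion ratio, log2 to the trend, changed sign for PSME2 with DESeq2 size factors (-0.00369), no covariates (-0.215), 5 components (-0.836), 10 components (-0.854) and the 47 deeper libraries (-0.139). It did so for PSMB10 with 5 components (-0.876), 10 components (-0.907), the 47 deeper libraries (-0.392) and without the 10 shallowest libraries (-0.00297), for PSMB9 with 5 (-1.05) and 10 components (-0.857), and for ERAP2 with no covariates (0.275).

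The covariation calls numbered 40 of 42 with limma, DESeq2's Wald test, DESeq2 size factors, no filter and without the 10 shallowest libraries, and 35 with no covariates. With 5 components, 190 features were called higher over the 7 fits; the members called were 1 with PSMB8, 1 with PSMB9, 0 with PSMB10, 1 with PSME1, 0 with PSME2, 1 with ERAP1 and 1 with ERAP2. With 10 components the count was 42 features and 0 members in each fit.

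Pearson's r over all lines used changed sign in pairs of a proteasome gene with an ERAP gene. PSMB10 and ERAP1 had -0.0352 in the deposited scores, -0.265 with 5 components and -0.339 with 10. With 5 and 10 components, PSMB9 had -0.0247 and -0.0953 with ERAP1 and -0.0196 and -0.0561 with ERAP2, PSMB10 had -0.0434 and -0.154 with ERAP2, PSME1 had -0.0985 and -0.197 with ERAP1 and -0.0483 and -0.00333 with ERAP2, and PSME2 had -0.0438 and -0.115 with ERAP2. PSME2 and ERAP1 had -0.0121 with 10. A further 21 values of r kept their sign but had a permutation p above 0.05, among them PSMB10 with ERAP2 (0.111), PSME1 with ERAP1 (0.0461) and PSME1 with ERAP2 (0.145) in the deposited scores. The cause was not tested for any of these changes. Ratios to the constitutive subunits were not run, since symbols could not be paired with identifiers. No paired analysis was possible because all 93 lines form 1 group.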
